A study of Mus musculus with 2 samples.

Results

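The p53 pathway, the DNA damage checkpoint and the linked apoptosis genes were read from 38 mouse genes, taken by symbol from a set list and grouped by role. All 38 were found among the 22711 genes of the deposited tables. RNA was measured in 2 cultures of immortal mouse embryonic fibroblasts (MEF), which are connective tissue cells taken from embryos and grown without limit. In PWK-Xi, with the strain label C57BL/6N X PWK/PhJ, the inactive X chromosome is the PWK copy. In B6-Xi, labelled PWK/PhJ X C57BL/6N, it is the B6 copy. By these labels both lines come from a cross of B6 (C57BL/6N) and PWK (PWK/PhJ), and all 38 genes are autosomal. How many copies of each chromosome the lines now carry was not measured. No treatment is given in the labels. The labels do not state how the cells were made immortal, their passage, or whether a line is 1 clone.

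The protein p53 is a transcription factor that is kept scarce by the ubiquitin ligase Mdm2 and its partner Mdm4. After DNA damage the kinases Atm and Atr, through Chek2 and Chek1, phosphorylate p53 and its inhibitors, and p53 accumulates. It then switches on genes for cell cycle arrest, for repair and for apoptosis. In cultured mouse fibroblasts, p53 and its upstream activator Arf are a known barrier to unlimited growth.

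There was 1 library per line, so each value below describes 1 library and no test between the lines could be made. Line, culture, strain of the inactive X and the order of the strains in the label (the cross) cannot be told apart. Levels are FPKM, a fragment density corrected for transcript length and library size, summed over both alleles unless an allele is named. The B6 share is the B6 allele's FPKM as a percentage of that sum. In PWK-Xi 12907 genes were above 0, with a summed 256196 FPKM, against 10127 genes and 285397 FPKM in B6-Xi. The number of reads behind a gene is unknown, and B6-Xi shares were the coarser ones. In PWK-Xi 4.15% of autosomal genes that reached 5 FPKM in each line had a share within 0.001 points of a simple fraction (denominator up to 10), against 28.4% in B6-Xi.

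The fibroblast label was read from 12 marker genes, of which 11 in PWK-Xi and 10 in B6-Xi were above 0. Col1a1 and Col1a2, chains of collagen I, had 35.5 and 69.2 FPKM in PWK-Xi, against 54.6 and 134.3 FPKM in B6-Xi. Dcn, the gene of the matrix proteoglycan decorin, had 456.4 FPKM in PWK-Xi and 79.1 FPKM in B6-Xi, and the receptor gene Pdgfra had 28.2 FPKM in PWK-Xi and 7.13 FPKM in B6-Xi. Lum had 7.20 FPKM in PWK-Xi and was listed at 0 in B6-Xi. By the 2-fold rule given below, 2 of the 10 markers compared were higher in PWK-Xi and 5 were lower. Vim, which fibroblasts express strongly, was listed at 0 in both, so a 0 in these tables can be a failed estimate. Markers of other cell types (epithelial, endothelial and immune, 4 each) summed to 1.03, 0.205 and 3.30 FPKM in PWK-Xi and to 0, 0 and 1.39 FPKM in B6-Xi. The 4 pluripotency markers summed to 17.6 FPKM in PWK-Xi, 15.1 of it from Pou5f1, with Zfp42 at 0. In B6-Xi all 4 were at 0. Their part in the differences below was not tested.

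Sequence windows around annotated gene starts were searched for the p53 consensus site, 2 decamers of 10 bases separated by 0 to 13 bases. The consensus decamer is its own reverse complement, so 1 search covered both strands. Windows (RefSeq, build GRCm38.p6, 250 bases before to 50 after a start) were present for 30 of the 38 genes, 39 windows in all. A site with at most 1 mismatch was found for 4 of them, Cdkn1a, Ccng1, Bax and Polk, against 1.24% of 27025 genes and 1.09% of 32851 windows. The 8 genes without a window were Zmat3, Pmaip1, Perp, Tnfrsf10b, Trp53inp1, Ddb2, Xpc and Rrm2b, and sequence outside the windows was not searched. The 4 windows are printed because they hold the closest matches among the windows searched, in genes whose levels are given below. Capitals mark both decamers and each sequence runs 5′ to 3′ on the gene's strand.
Cdkn1a: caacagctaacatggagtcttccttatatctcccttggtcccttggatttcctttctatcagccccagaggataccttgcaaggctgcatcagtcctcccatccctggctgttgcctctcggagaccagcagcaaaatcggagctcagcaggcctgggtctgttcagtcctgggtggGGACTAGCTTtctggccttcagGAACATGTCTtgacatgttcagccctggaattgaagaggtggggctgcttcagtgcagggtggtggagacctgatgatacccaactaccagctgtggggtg
Ccng1: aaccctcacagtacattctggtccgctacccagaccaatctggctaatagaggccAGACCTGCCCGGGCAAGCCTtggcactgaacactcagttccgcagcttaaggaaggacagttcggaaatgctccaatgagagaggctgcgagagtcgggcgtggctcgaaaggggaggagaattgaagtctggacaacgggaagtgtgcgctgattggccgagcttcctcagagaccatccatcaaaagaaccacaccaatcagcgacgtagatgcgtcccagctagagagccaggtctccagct
Bax: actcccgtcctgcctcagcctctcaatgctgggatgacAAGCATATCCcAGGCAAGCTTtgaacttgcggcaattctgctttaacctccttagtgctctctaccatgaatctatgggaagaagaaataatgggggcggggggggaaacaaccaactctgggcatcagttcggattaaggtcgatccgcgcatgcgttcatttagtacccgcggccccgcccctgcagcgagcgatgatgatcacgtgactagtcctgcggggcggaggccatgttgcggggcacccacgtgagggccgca
Polk: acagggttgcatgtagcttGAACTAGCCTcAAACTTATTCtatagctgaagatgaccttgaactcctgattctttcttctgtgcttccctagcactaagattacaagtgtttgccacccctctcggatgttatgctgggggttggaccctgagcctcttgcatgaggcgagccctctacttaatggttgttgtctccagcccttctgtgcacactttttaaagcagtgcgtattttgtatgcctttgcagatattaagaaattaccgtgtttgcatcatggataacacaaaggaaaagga
The windows lie at chr17:29090729-29091028 (plus strand) for Cdkn1a, chr11:40755237-40755536 (minus) for Ccng1, chr7:45466849-45467148 (minus) for Bax and chr13:96519138-96519437 (minus) for Polk. The Cdkn1a site had 0 mismatches with a spacer of 12 bases and began 73 bases before the start. Its second decamer also opens an overlapping site with 1 mismatch and no spacer, 51 bases before the start. The sites of Ccng1, Bax and Polk had 1 mismatch each and began 195, 212 and 231 bases before their starts. Cdkn1a and Polk have 2 windows each, and the window shown is the only one with a site. Which annotated start these cells use was not tested, nor whether each annotated start, that of Polk included, is a true transcription start. The exact decamer alone occurred in windows of 10 of the 30 genes, against 9.55% of all genes. These matches describe letters, not binding, and these files hold no measurement of p53 occupancy.

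Levels spread widely within the pathway. Each is an average over a culture, in which fewer cells expressing a gene and less RNA per cell cannot be told apart. Of the 38 genes, 20 reached 5 FPKM in PWK-Xi and 19 in B6-Xi, while 2 in PWK-Xi and 5 in B6-Xi were listed at 0. Together they made 0.218% of the summed FPKM in PWK-Xi (559.6 FPKM) and 0.263% in B6-Xi (750.3 FPKM). Cdkn1a was the most abundant in both lines, followed by Bax, Phlda3 and Ccng1 in PWK-Xi and by Ccng1, Bax and Phlda3 in B6-Xi. Arrest and stress targets held 251.2 FPKM in PWK-Xi and 398.9 FPKM in B6-Xi, and apoptosis genes held 151.9 FPKM in PWK-Xi and 218.9 FPKM in B6-Xi. The 4 upstream kinases held 18.5 FPKM in PWK-Xi and 5.86 FPKM in B6-Xi.

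**Figure D1:**
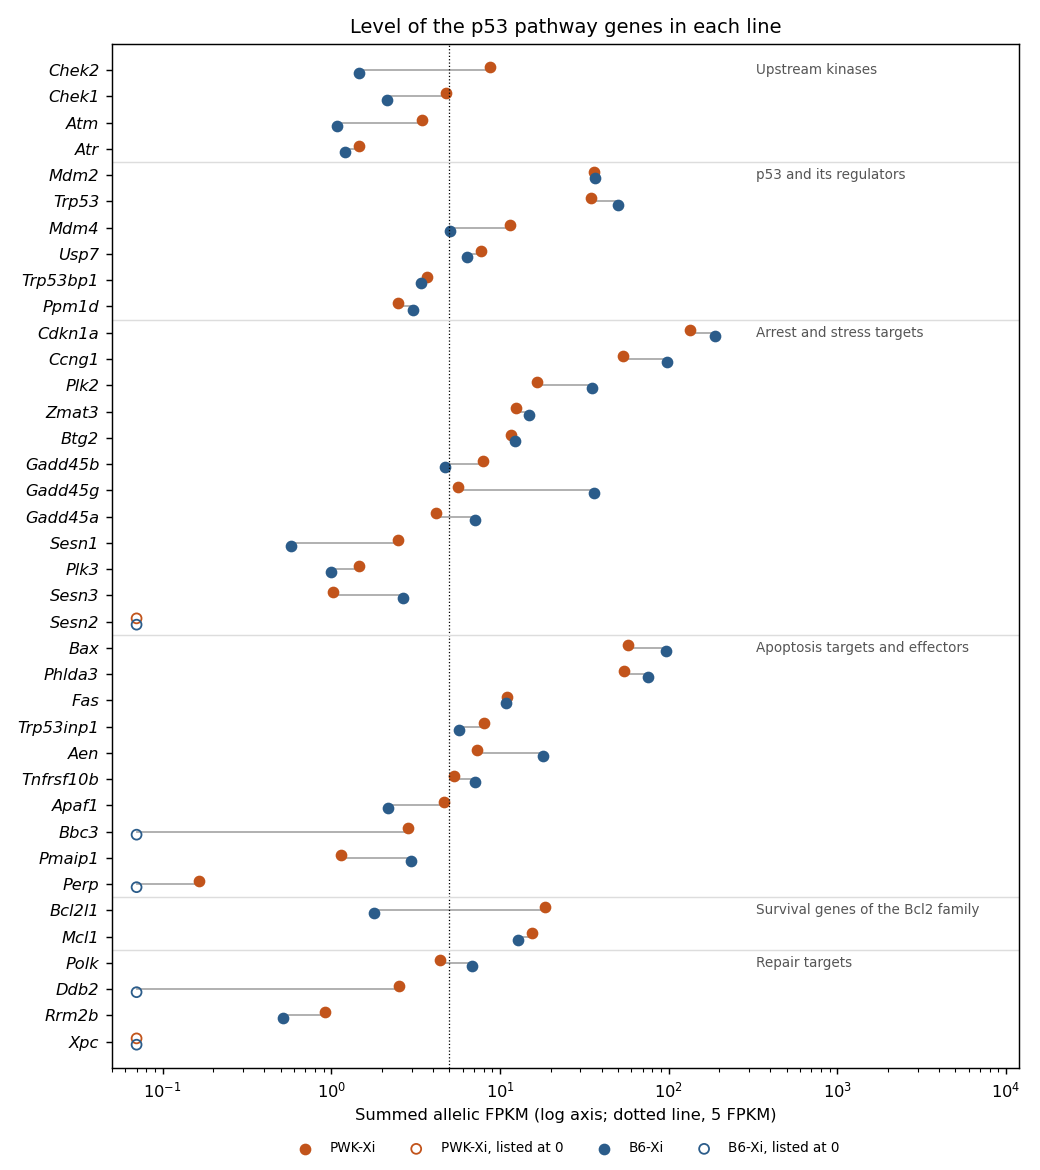
Summed allelic FPKM (log axis) of each of the 38 genes in PWK-Xi (orange) and B6-Xi (blue), grouped by role, with grey lines joining the 2 libraries and open circles for genes listed at 0. Chek2 and Bcl2l1 lie further right in PWK-Xi, while Cdkn1a, Ccng1, Plk2, Bax, Phlda3 and Aen lie further right in B6-Xi.

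Differences are log2((PWK-Xi + 1)/(B6-Xi + 1)), where 1 FPKM is the pseudocount, so changes of low genes are understated. They are given relative to the median of all 5241 genes compared (0.19), namely those above 0 in both lines that reached 5 FPKM in PWK-Xi or B6-Xi. A difference of 2-fold or more on this scale was higher in PWK-Xi for 10.1% of these genes and lower for 8.93%. Of the 38 genes, 22 could be compared. In PWK-Xi 2 of them were at least 2-fold higher (Chek2 and Bcl2l1), 4 were at least 2-fold lower (Gadd45g, Aen, Plk2 and Ccng1) and 16 lay within 2-fold. Both higher genes were under 2 FPKM in B6-Xi and could be compared only through their level in PWK-Xi. Among the 17 genes with 5 FPKM in both lines, a minimum chosen after the data were seen, 0 were higher and 4 lower. Of all 3960 such genes 4.8% were higher and 7.15% lower. The median difference of the 22 genes was -0.49, against 0 for all genes compared by construction, and 15 of the 22 lay below 0. The 2 higher genes are 9.09% of those compared, near the 10.1% of all genes, and the 4 lower ones are 18.2%, beside 8.93%.

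**Figure D2:**
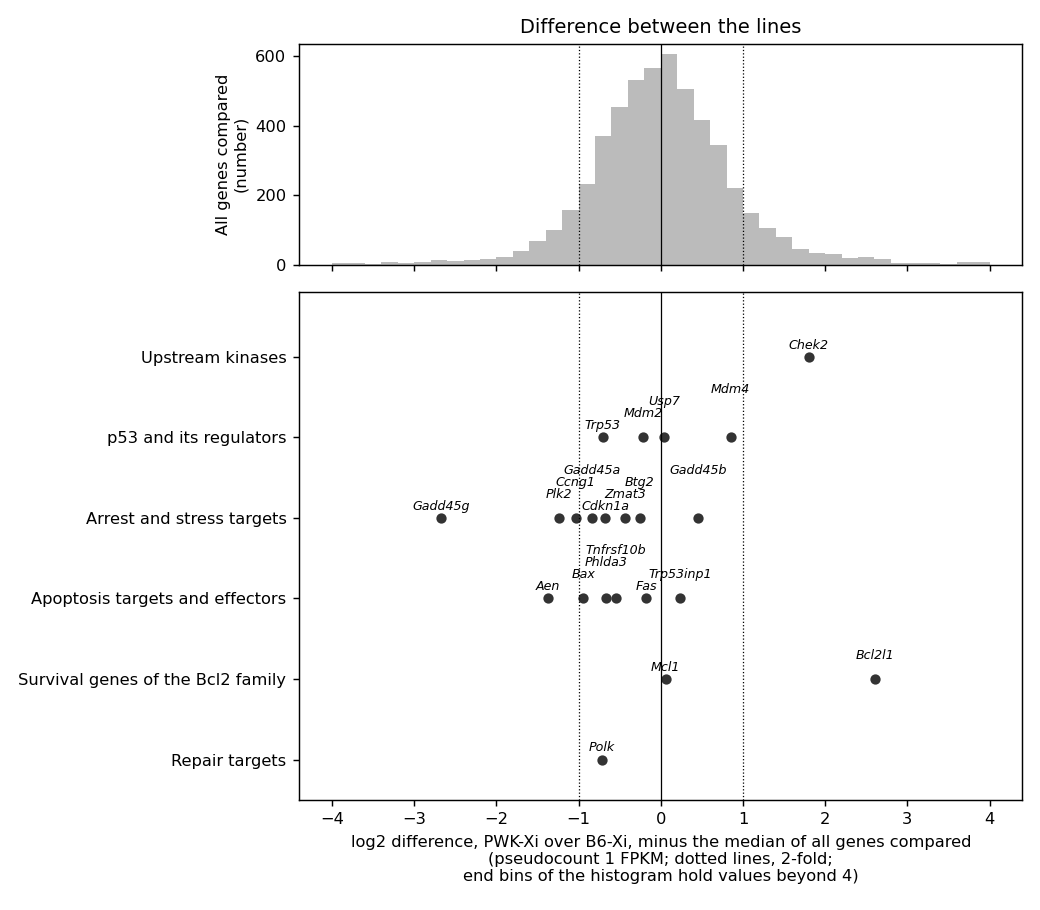
Top, histogram of the centred log2 difference (PWK-Xi over B6-Xi) of all 5241 genes compared; bottom, the same difference of the 22 pathway genes compared, 1 row per role. Of the arrest genes 7 of 8 and of the apoptosis genes 5 of 6 lie left of 0, 3 arrest genes and 1 apoptosis gene lie beyond 2-fold on that side, and Chek2 and Bcl2l1 lie beyond 2-fold on the right.

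Of the 4 kinases that relay DNA damage to p53, Chek2 alone reached 5 FPKM in either line, and it was at least 2-fold higher in PWK-Xi. Chek2, the effector kinase downstream of Atm, had 8.78 FPKM in PWK-Xi against 1.45 FPKM in B6-Xi, a ratio of 6.05 and a log2 difference of 1.80. Of all genes compared, 97.2% had a lower difference. Chek2 lies on chromosome 5, whose median B6 share is 36.5% in PWK-Xi and 51.0% in B6-Xi, and relative to the genes of that chromosome its difference was 1.45. Chek1, the effector kinase downstream of Atr, had 4.79 FPKM in PWK-Xi and 2.14 FPKM in B6-Xi. Atm, the kinase that responds to double-strand breaks, had 3.43 FPKM in PWK-Xi and 1.08 FPKM in B6-Xi. Atr, which responds to stalled replication forks, had 1.46 FPKM in PWK-Xi and 1.20 FPKM in B6-Xi. Chek1, Atm and Atr stayed under 5 FPKM in both lines and were not compared by fold, so their levels are given as values. They lie on chromosome 9. Their B6 shares were between 44.1% and 53.8% in PWK-Xi and between 33.3% and 63.6% in B6-Xi. Their levels lie under the 5 FPKM minimum for shares.

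Trp53, the gene of p53 itself, had 34.8 FPKM in PWK-Xi and 50.0 FPKM in B6-Xi, a log2 difference of -0.71, within 2-fold. The difference lay in the PWK allele, which had 13.8 FPKM in PWK-Xi and 31.1 FPKM in B6-Xi, while the B6 allele had 21.0 FPKM in PWK-Xi and 18.9 FPKM in B6-Xi. Its B6 share was accordingly 60.2% in PWK-Xi and 37.8% in B6-Xi. Trp53 lies on chromosome 11, and its 20 nearest measured genes had median shares of 59.3% in PWK-Xi and 45.8% in B6-Xi, so its share leaned the same way as theirs in both lines. Relative to the genes of chromosome 11, its difference was -0.26. A pseudogene of Trp53 is annotated on chromosome 17, and reads from it could not be told apart here from those of the gene.

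Mdm2, the ubiquitin ligase that targets p53 and is itself a p53 target, was nearly level, with 36.2 FPKM in PWK-Xi and 36.8 FPKM in B6-Xi. Mdm4, its partner that blocks p53 activity, had 11.4 FPKM in PWK-Xi and 5.03 FPKM in B6-Xi. Its log2 difference of 0.85 stayed within 2-fold, but reached 1.04 without centring and 1.18 when both libraries were scaled to the same sum. Nearly all of it came from the B6 allele, with 8.09 FPKM in PWK-Xi and 2.05 FPKM in B6-Xi, while the PWK allele had 3.35 FPKM in PWK-Xi and 2.98 FPKM in B6-Xi. Mdm4 lies on chromosome 1, where the median B6 share was 70.1% in PWK-Xi and 51.5% in B6-Xi, and its own share was 70.7% in PWK-Xi and 40.8% in B6-Xi. Relative to that chromosome its difference was 0.45.

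The remaining regulators were close between the lines. Usp7, a deubiquitinase of Mdm2 and p53, had 7.66 FPKM in PWK-Xi and 6.35 FPKM in B6-Xi. Trp53bp1, a scaffold protein of double-strand break repair, had 3.69 FPKM in PWK-Xi and 3.39 FPKM in B6-Xi, and Ppm1d, the phosphatase that turns p53 signalling down, had 2.49 FPKM in PWK-Xi and 3.04 FPKM in B6-Xi. All 3.39 FPKM of Trp53bp1 in B6-Xi came from the B6 allele, against 60.0% in PWK-Xi. This value lies under the 5 FPKM minimum for shares.

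Of the 12 genes grouped here as arrest and stress targets, 8 could be compared. Whether p53 drives each of them in these lines was not tested. At least 2-fold lower in PWK-Xi were 3 of the 8 (37.5%, beside 8.93% of all genes), 0 were higher by as much and 5 lay within 2-fold. The median difference was -0.76, and 7 lay below 0 (6 when both libraries were scaled to the same sum). Cdkn1a, the gene of the Cdk inhibitor p21, had 133.9 FPKM in PWK-Xi and 187.3 FPKM in B6-Xi, a difference of -0.67, within 2-fold. Both alleles were lower in PWK-Xi, at 81.1 FPKM in PWK-Xi against 102.5 FPKM in B6-Xi for the B6 allele and 52.8 FPKM in PWK-Xi against 84.7 FPKM in B6-Xi for the PWK allele. Ccng1, the gene of cyclin G1, a partner in Mdm2 regulation, had 53.9 FPKM in PWK-Xi and 97.4 FPKM in B6-Xi. Its difference of -1.04 was just past 2-fold and came within it in 5 alternatives, at -0.59 relative to chromosome 11. Plk2, a stress-responsive polo-like kinase gene, had 16.5 FPKM in PWK-Xi and 35.0 FPKM in B6-Xi, a difference of -1.24 with both alleles lower.

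Gadd45g stood apart within its family of growth arrest and damage inducible genes, whose products bind stress kinases and PCNA. It had 5.63 FPKM in PWK-Xi and 36.1 FPKM in B6-Xi, 6.40 times as much in B6-Xi, with a log2 difference of -2.68. Only 0.744% of all genes compared had a lower difference. Both alleles contributed, with 4.04 FPKM in PWK-Xi and 18.0 FPKM in B6-Xi for the B6 allele, and 1.59 FPKM in PWK-Xi and 18.0 FPKM in B6-Xi for the PWK allele. Gadd45a had 4.17 FPKM in PWK-Xi and 7.09 FPKM in B6-Xi. Gadd45b lay the other way, with 7.94 FPKM in PWK-Xi and 4.72 FPKM in B6-Xi. Both stayed within 2-fold, at -0.84 for Gadd45a and 0.45 for Gadd45b.

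The other arrest and stress genes differed less or were low. Zmat3, which encodes an RNA-binding zinc finger protein, had 12.5 FPKM in PWK-Xi and 14.9 FPKM in B6-Xi. Btg2, an antiproliferative gene, had 11.7 FPKM in PWK-Xi and 12.2 FPKM in B6-Xi. The sestrins, which restrain mTORC1 signalling under stress, were low or at 0. Sesn1 had 2.48 FPKM in PWK-Xi and 0.579 FPKM in B6-Xi, Sesn3 had 1.03 FPKM in PWK-Xi and 2.65 FPKM in B6-Xi, and Sesn2 was listed at 0 in both. Plk3, another polo-like kinase gene, had 1.46 FPKM in PWK-Xi and 0.998 FPKM in B6-Xi.

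Of the 10 apoptosis genes, 6 could be compared. Aen was at least 2-fold lower in PWK-Xi (1 of 6, 16.7%, beside 8.93% of all genes), 0 were higher by as much and 5 lay within 2-fold. Below 0 lay 5 of the 6 (4 without centring, scaled to the same sum or relative to their chromosome), and the median was -0.61. Bax, which forms pores in the mitochondrial outer membrane, had 57.0 FPKM in PWK-Xi and 96.5 FPKM in B6-Xi, a difference of -0.94, within 2-fold. Here the PWK allele differed most, with 16.3 FPKM in PWK-Xi and 48.3 FPKM in B6-Xi, while the B6 allele had 40.7 FPKM in PWK-Xi and 48.3 FPKM in B6-Xi. Phlda3, an inhibitor of Akt signalling, had 54.4 FPKM in PWK-Xi and 75.8 FPKM in B6-Xi, a difference of -0.66. There the B6 allele differed, with 25.1 FPKM in PWK-Xi and 49.4 FPKM in B6-Xi, while the PWK allele had 29.3 FPKM in PWK-Xi and 26.4 FPKM in B6-Xi. Relative to the genes of chromosome 1, the difference of Phlda3 was -1.07, past 2-fold.

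Aen, the gene of a nuclease that digests DNA in apoptosis, was past 2-fold, with 7.33 FPKM in PWK-Xi and 17.9 FPKM in B6-Xi and a difference of -1.37. The death receptor genes were close. Fas had 10.9 FPKM in PWK-Xi and 10.8 FPKM in B6-Xi, and Tnfrsf10b, the mouse TRAIL receptor gene, had 5.36 FPKM in PWK-Xi and 7.12 FPKM in B6-Xi. Trp53inp1, whose product promotes p53 phosphorylation, had 7.99 FPKM in PWK-Xi and 5.69 FPKM in B6-Xi. Apaf1, the scaffold that activates caspase 9, had 4.67 FPKM in PWK-Xi and 2.16 FPKM in B6-Xi. The BH3-only genes of this class were low, with Pmaip1 (Noxa) at 1.15 FPKM in PWK-Xi and 2.98 FPKM in B6-Xi. Bbc3 (Puma) had 2.83 FPKM in PWK-Xi and was listed at 0 in B6-Xi, as was Perp, a desmosome-linked p53 target with 0.165 FPKM in PWK-Xi.

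**Figure D3:**
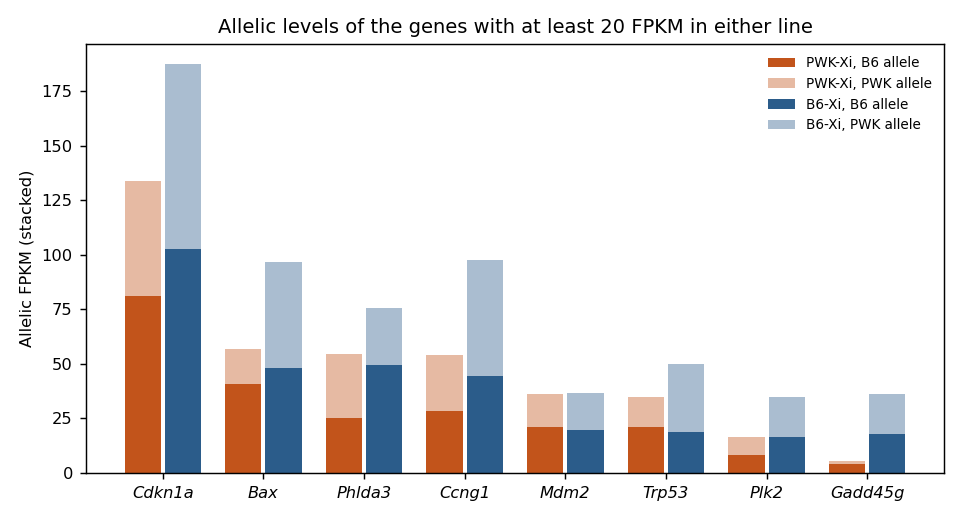
Allelic FPKM of the 8 genes that reached 20 FPKM in PWK-Xi or B6-Xi, stacked with the B6 allele below (dark) and the PWK allele above (pale), PWK-Xi in orange left of B6-Xi in blue. Cdkn1a, Ccng1, Bax, Plk2 and Gadd45g are lower in PWK-Xi for both alleles. Trp53 and, slightly, Mdm2 are lower for the PWK allele alone, and Phlda3 for the B6 allele alone.

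Of the survival genes, Bcl2l1 differed and Mcl1 did not pass 2-fold. Bcl2l1, the gene of Bcl-xL, which holds Bax in check, had 18.4 FPKM in PWK-Xi and 1.79 FPKM in B6-Xi, a ratio of 10.3 and a difference of 2.61. Of all genes compared, 99.1% had a lower difference, and relative to chromosome 2 it was 2.58. Both alleles were higher in PWK-Xi, with 5.30 FPKM in PWK-Xi against 0.256 FPKM in B6-Xi for the B6 allele and 13.1 FPKM in PWK-Xi against 1.53 FPKM in B6-Xi for the PWK allele. Mcl1, another guardian of the mitochondrial membrane, had 15.5 FPKM in PWK-Xi and 12.8 FPKM in B6-Xi. The repair genes were low. Polk, a translesion polymerase gene, had 4.42 FPKM in PWK-Xi and 6.80 FPKM in B6-Xi, and Rrm2b, a ribonucleotide reductase subunit gene, had 0.919 FPKM in PWK-Xi and 0.516 FPKM in B6-Xi. Ddb2, a sensor of ultraviolet damage, had 2.53 FPKM in PWK-Xi and was listed at 0 in B6-Xi. Xpc, another damage sensor of nucleotide excision repair, was listed at 0 in both lines.

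B6 shares were read for the 17 genes that reached 5 FPKM in each line. Their median was 52.98% in PWK-Xi and 46.2% in B6-Xi, beside 52.4% in PWK-Xi and 50.0% in B6-Xi for all 3827 autosomal genes measured the same way. The share was higher in PWK-Xi by any amount for 14 of the 17, against 55.7% of those autosomal genes. For 6 (35.3%) it was higher by at least 20 points, against 17.7% of the autosomal genes, and for 0 it was lower by as much, against 9.12%. The 6 were Mdm4, Trp53, Mcl1 (52.6% in PWK-Xi and 0% in B6-Xi), Btg2 (81.7% in PWK-Xi and 46.2% in B6-Xi), Gadd45g (71.8% in PWK-Xi and 50.0% in B6-Xi) and Bax (71.4% in PWK-Xi and 50.0% in B6-Xi). In B6-Xi the shares of Mcl1, Gadd45g, Bax and Tnfrsf10b were simple fractions as defined above, 4 of the 17, against 28.4% of autosomal genes. In PWK-Xi 0 of the 17 were. The number of reads behind these shares is unknown. With a minimum of 1 FPKM in both lines, 9 genes were higher and 3 were lower by 20 points, for which no all-gene percentage is given. Chromosomes 1 and 11, which hold 3 of the 6, have median shares of 70.1% and 54.0% in PWK-Xi against 51.5% and 40.8% in B6-Xi.

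Each share was also set against the median of 10 measured genes on each side along the chromosome. In PWK-Xi 3 of 17 (17.6%) departed from it by at least 20 points, against 9.01% of autosomal genes. Bax was 26.8 points above its neighbours (44.5%) and Gadd45g 20.2 points above (51.7%), while Phlda3 was 24.4 points below (46.2% against 70.6%). In B6-Xi it was also 3 of 17, beside a background of 17.3%. Mcl1 lay 47.9 points below its neighbours, with 12.8 FPKM all from the PWK allele, and Fas and Tnfrsf10b lay 20.3 points below theirs. The B6-Xi shares of Mcl1 and Tnfrsf10b were among the simple fractions named above. The number departing in both lines was 0 of 17, beside 4.21% of autosomal genes. Among genes left out by the 5 FPKM minimum, Pmaip1 was 43.9 points above its neighbours in PWK-Xi and 50.2 points above in B6-Xi. Bcl2l1 was 21.0 points below in PWK-Xi and 49.2 points below in B6-Xi, where it had 1.79 FPKM. No background is given for levels this low. Trp53, Mdm2, Usp7, Cdkn1a, Ccng1, Zmat3 and Trp53inp1 stayed within 10 points of their neighbours in both lines.

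**Figure D4:**
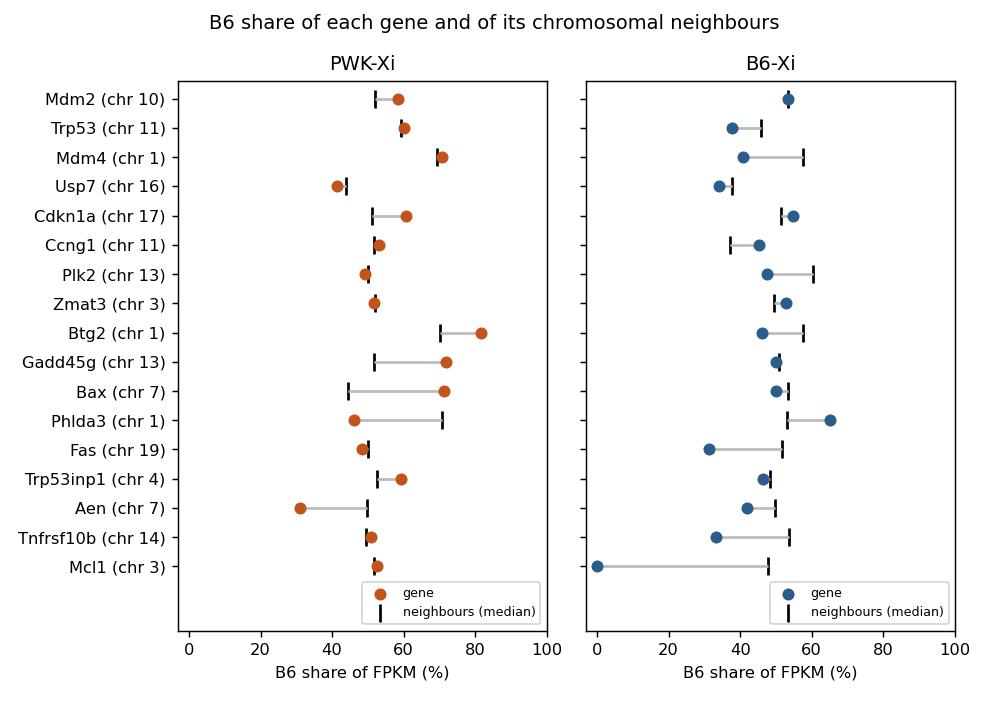
B6 share of FPKM (%) of the 17 genes that reached 5 FPKM in each line (filled circles) and the median of up to 20 chromosomal neighbours (black bars), PWK-Xi left and B6-Xi right. Bax, Gadd45g and Phlda3 lie furthest from their neighbours in PWK-Xi, and Mcl1, at 0%, in B6-Xi.

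Further genes of the pathway were read from 3 lists of other members. Of 27 genes that signal double-strand breaks and replication stress, 13 could be compared, 1 was at least 2-fold higher in PWK-Xi, 0 were lower, and the median difference was 0.16. The higher one was H2afx, the histone variant phosphorylated at breaks, with 54.8 FPKM in PWK-Xi and 20.9 FPKM in B6-Xi. Of 27 further p53 targets and partners found, 20 could be compared, 2 were higher and 4 lower, with a median of -0.13. Thbs1, the gene of the matrix protein thrombospondin 1, had 51.8 FPKM in PWK-Xi and 125.9 FPKM in B6-Xi, and Cd82 and Epha2 had 1.88 and 1.69 FPKM in PWK-Xi against 7.42 and 5.75 FPKM in B6-Xi. Tnfrsf23, a TRAIL decoy receptor gene and 1 of the higher ones, had 10.1 FPKM in PWK-Xi and 2.34 FPKM in B6-Xi.

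Cdkn2a, which encodes the p53 activator Arf besides p16, had 6.88 FPKM in PWK-Xi and was listed at 0 in B6-Xi. A 0 of this kind was not confined to Cdkn2a: among the 5065 genes that reached 5 FPKM in PWK-Xi, B6-Xi listed 241 at 0. With genes listed at 0 in 1 line included, 13.4% of 5490 genes were at least 2-fold higher in PWK-Xi and 9.18% lower. Without such genes these were 10.1% and 8.93%. Of 31 genes of mitochondrial apoptosis and caspases, 15 could be compared, 2 were higher and 2 lower, with a median of -0.26. The higher ones were Xiap, an X-linked caspase inhibitor gene, with 13.9 FPKM in PWK-Xi and 1.62 FPKM in B6-Xi, all from the active X in both lines, and Endog, a mitochondrial nuclease gene, with 9.53 FPKM in PWK-Xi and 1.53 FPKM in B6-Xi. The lower ones were Bad, a BH3-only gene, with 9.54 FPKM in PWK-Xi and 21.2 FPKM in B6-Xi, and Birc2, a ubiquitin ligase gene, with 2.59 FPKM in PWK-Xi and 6.24 FPKM in B6-Xi. Over these 3 lists the counts were 5 higher and 6 lower of 48 compared. These are 10.4% and 12.5%, near the 10.1% higher and 8.93% lower among all genes.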

How the data were processed

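Polyadenylated RNA was captured with oligo-dT and made into Smart-seq2 libraries, per the labels' protocols. The authors deposited FPKM values, 1 column per allele per the file headers, for 1 PWK-Xi and 1 B6-Xi library, grouped by title. Tools listed in the submitters' processing notes are HISAT2 2.2.0, StringTie 2.1.1 and Trim Galore 0.6.4, and the build listed is mm9. The method that split reads by strain is not given there. FPKM are not counts, so depth is unknown and no count model or interval was used. Sums, shares and log2 differences were computed with Python 3.11.15, numpy 2.4.6 and pandas 2.3.3, plotted with matplotlib 3.10.9, and tested on simulated data. The order of genes along chromosomes was taken from GENCODE and RefSeq (GRCm38, later than mm9), and no coordinates of theirs beyond the printed windows were used. They matched 22616 symbols, and 95 stayed unmatched. Neighbours needed 1 FPKM in both lines.

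The members, classes and other lists were chosen with earlier results of these data known. All members are named. Of each other list, the 3 genes with the largest difference past 2-fold per direction are named, and the 3 highest at 5 FPKM in 1 line and 0 in the other. The values of 1 such gene are not reported here. Alternatives covered pseudocount, minimum, centring, scaling, share thresholds and neighbourhood size.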

Additional observations from a re-analysis of the deposited data

How the results depend on the processing

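With a minimum of 20 FPKM, 0 of the 8 members left were higher and 2 lower in PWK-Xi, beside 11.6% and 10.1% of all genes. Of the other pathway genes 1 was higher and 2 were lower. Scaled to the same summed FPKM, 3 of 22 members were higher and 2 lower, beside 18.5% and 4.64% of all genes. There 11 other genes were higher and 3 lower. Without centring, 3 of 22 members were higher and 3 lower, beside 14.1% and 5.95% of all genes. There 8 other genes were higher, as with a pseudocount of 0.1 or none (12.1% and 12.6% of all genes higher). With 5 FPKM in both lines, an alternative added after the data were seen, 0 of 17 members were higher, beside 4.8% of all genes. The members' median difference (-0.49) was -0.21 with a minimum of 1 FPKM, -0.76 with 20 FPKM, -0.15 with none, -0.30 without centring and -0.16 scaled to the same sum. Without centring all genes had a median of 0.19, and scaled 0.34. Of 22 members compared, 18 kept their side of 2-fold under each alternative in which they could be compared. The exceptions were Mdm4, Ccng1, Plk2 (-0.89 when scaled) and Phlda3, and no called difference changed sign. A minimum of 20 FPKM left 8 members and 5 FPKM in both lines left 17. Chek2 and Bcl2l1 dropped out of both settings, so their calls were not checked there. Of the 17 genes with shares, 2 were higher at 30 points, and 9 were higher and 2 lower at 10 points. At a minimum of 1 FPKM, 9 genes were higher and 3 lower by 20 points. Departures from neighbours numbered 5 in PWK-Xi and 7 in B6-Xi at 10 points, and 0 and 1 at 30 points. The percentage of all autosomal genes at these changed share settings is not given here, so these counts have no background. No paired analysis was possible because each line has 1 library. Read depth is unknown, so whether low or 0 values reflect few reads could not be told.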
